A study of Mus musculus with 15 samples.

Results

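The brainstem RNA of mice labelled AMPKα2-/- was compared with that of wild-type (WT) mice over all genes expressed in the tissue. The comparison holds 6 of the 15 libraries of the series: 3 WT libraries with the labelled genotype AMPK+/+ and 3 libraries with the labelled genotype AMPK-/-, all from Brain stem, made from polyA RNA. The study describes ventilatory control center tissue of AMPKα2-/- mice and their WT littermates. The labels give no age, and the methods give postnatal days 1 to 5 for mice of the study without tying them to the sequenced tissue. No strain, sex, promoter or Cre is given in the sources used here, and no label ties a library to an animal, so the p-values measure the spread between libraries, which may in part be technical. The other 9 libraries come from prenatal brainstem of Lmx1b WT, Lmx1b+/- and Lmx1b-/- mice and are used only where the effect of the AMPK label is set beside that of Lmx1b loss. Of the 57180 genes listed, 34073 had at least 1 count in the 6 libraries, and 17397 passed the filter on low counts and were tested.

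AMPK is a kinase of 3 subunits that is switched on when cellular energy runs low. Its catalytic α subunit comes in 2 forms, α1 (gene Prkaa1) and α2 (gene Prkaa2), and it turns down the synthesis of lipid, sterol and protein and turns up mitochondrial fuel use and renewal. The brainstem holds the neurons that set the rhythm of breathing, among them glutamatergic, glycinergic, serotonergic and chemosensitive cells, together with the motor neurons and axon tracts that carry the rhythm out.

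Total counts lay between 14975095 and 17384171 in WT 1, WT 3 and the libraries labelled AMPKα2-/- 1 and 2, here KO-labelled 1 and 2. WT 2 and KO-labelled 3 held only 291212 and 335986 counts. In the 4 deep libraries 3 counts, the limit that a count of 0 allows, correspond to 0.175 to 0.198 CPM (the usual depth-scaled count, relative to the scaled library total), and in the 2 shallow ones to 9.98 and 9.07 CPM. Levels in single libraries are therefore read first in the 4 deep libraries, with the direction in the shallow pair beside them. The log2 fold changes, SE and adjusted p of single genes come from all 6 libraries unless another fit is named. Many of the genes named below were chosen by small p and separate deep libraries in these same data. For them a lack of overlap between the groups was in large part set by the choice. Over all genes the 6 libraries did not overlap in 26.6%, in one direction or the other. In a fit of the 4 deep libraries alone, 6 of the 131 named genes called with all libraries passed the adjusted threshold. Xist was at 180.9 to 316.1 CPM in WT 1, WT 2, KO-labelled 1 and KO-labelled 2, and the Y-linked gene Ddx3y was at 64.7 and 84.6 CPM in WT 3 and KO-labelled 3, so that each genotype held libraries of both patterns. Limits of this kind cover counting error only.

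Markers of the tissue were present in every library. Slc6a5, the glycine transporter of inhibitory brainstem and spinal neurons, lay between 163.2 and 309 CPM, while Emx1, a factor of the telencephalon, had at most 5 counts in any library. Myelin genes were abundant, with Mbp at 6801 to 11802 CPM and Mobp at 2070 to 3523 CPM, and the proliferation marker Mki67 was at most at 3.33 CPM. Abundant myelin RNA with little Mki67 is not the usual pattern of newborn mouse brainstem, and the age of the sequenced animals cannot be read from the labels. Counts of the embryonic globin gene Hbb-y were 0 in all 6 libraries. Atoh1 and Dbx1, factors of breathing-related progenitors, also had 0 counts.

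A pair of libraries stood apart from the others. Skeletal muscle genes such as Ttn and Neb summed to 2050 CPM in WT 3 and to between 121.8 and 173.6 CPM in the other 5 libraries. Most of the sum in those 5 was 1 list member, Pvalb, at 89.5 to 136.8 CPM there and 184.3 CPM in WT 3. The Hox genes of the hindbrain and spinal cord summed to 78.1 CPM in KO-labelled 1 and to between 223.6 and 425.4 CPM in the others. Counts of the gene groups are therefore also given with single libraries left out.

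The targeted gene did not separate the labels. Prkaa2 (ENSMUSG00000028518) was at 21.9, 26.6 and 29.7 CPM in WT 1 to 3 and 25.4, 22.3 and 12.1 CPM in KO-labelled 1 to 3. The groups overlapped, with the lowest value in the shallow KO-labelled 3. The log2 fold change was −0.20 (SE 0.23, adjusted p = 0.659), and a two-sided exact permutation test of the CPM gave p = 0.3, and 0.1 is the smallest p that 3 libraries against 3 can give. Counts over a whole gene do not tell whether a transcript is intact, so AMPKα2-/- is used here as the label of a library and each direction given is one between labels. Prkaa1, for the other catalytic subunit, was at 49.2, 56.6 and 61.6 CPM in WT 1 to 3 and 73.00, 62.2 and 57.4 CPM in KO-labelled 1 to 3. Prkab1, Prkab2, Prkag1 and Prkag2, for the β and γ subunits, had log2 fold changes of −0.31, −0.40, 0.06 and 0.16. Of the 6 subunit genes tested, 0 passed the adjusted threshold in edgeR, 0 had an unadjusted p under 0.05, and 0 passed in limma or, of the 4 with an adjusted p there, in DESeq2. Of 19 tested genes for AMPK subunits, upstream kinases and phosphatases, 1 was called, Camkk2, a calcium-dependent kinase that phosphorylates AMPK, which was at 35.9, 29.9 and 44.01 CPM in WT 1 to 3 and 20.1, 24.9 and 27.2 CPM in KO-labelled 1 to 3. It was lower in each KO-labelled library than in every WT library, with a log2 fold change of −0.75 (SE 0.22, adjusted p = 0.0302). It was not called without WT 3 or without any 1 of the KO-labelled libraries.

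Between the labels, 1555 genes (8.94%) passed the edgeR quasi-likelihood test at an adjusted p under 0.05. Higher in the KO-labelled libraries were 655 genes (3.77%), and 900 (5.17%) were lower. These are the shares against which each count of a gene group is read. Leaving out 1 library at a time gave between 548 genes called (without WT 3) and 2958 (without WT 1), and limma on log2 RPKM gave 0, with 2757 genes at an unadjusted p under 0.05. With scaling by library size only, the median of all genes moved from −0.01 to −0.18 on the log2 scale and the split became 273 higher and 1655 lower.

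When the 4 deep libraries were fitted alone, 6 genes (0.0332% of 18088) passed the threshold, and 3657 had an unadjusted p under 0.05. The 6 genes also passed in the 6-library fit and whichever single library was left out. Pttg1, Gal and Gcg rose, and Slc17a7, Col27a1 and Col11a2 fell. Slc17a7 (ENSMUSG00000070570), the vesicular glutamate transporter VGLUT1 of cortical, cerebellar and some brainstem neurons, was at 73.1, 109.8 and 71.1 CPM in WT 1 to 3 and 10.6, 6.80 and 12.1 CPM in KO-labelled 1 to 3. All KO-labelled libraries lay below all WT libraries, and the log2 fold change was −3.15 (SE 0.25, adjusted p = 7.89e-08). Col27a1 and Col11a2 encode fibrillar collagens. Col27a1 was at 19.4, 9.98 and 20.7 CPM in WT 1 to 3 and 4.29, 3.82 and 0 CPM in KO-labelled 1 to 3 (log2 fold change −2.28, SE 0.31, adjusted p = 0.000192), and Col11a2 was at 47.5, 16.6 and 40.8 CPM in WT 1 to 3 and 12.1, 11.6 and 6.04 CPM in KO-labelled 1 to 3 (log2 fold change −1.82, SE 0.25, adjusted p = 0.000273).

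Pttg1 (ENSMUSG00000020415), which encodes securin, the inhibitor of separase in mitosis, was at 0.527, 0 and 0.700 CPM in WT 1 to 3 and 12.5, 23.97 and 36.3 CPM in KO-labelled 1 to 3. It was near the detection limit in WT and detected in each KO-labelled library, with a log2 fold change of 5.03 (SE 0.44, adjusted p = 3.3e-07), while 24 other tested cell cycle genes were not called. Gal, the precursor of the neuropeptide galanin, was at 4.21, 6.66 and 2.63 CPM in WT 1 to 3 and 26.2, 26.6 and 36.3 CPM in KO-labelled 1 to 3, so that the groups did not overlap (log2 fold change 2.98, SE 0.30, adjusted p = 4.19e-06). Gcg, the precursor of glucagon and of GLP-1, which is made in the brain by neurons of the nucleus of the solitary tract, had 1 count in the 2 deep WT libraries together and 173 counts in the 2 deep KO-labelled ones. The ratio of these levels was 183, with a 95% interval of 32.4 to 7265 that covers counting error only.

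**Figure D1:**
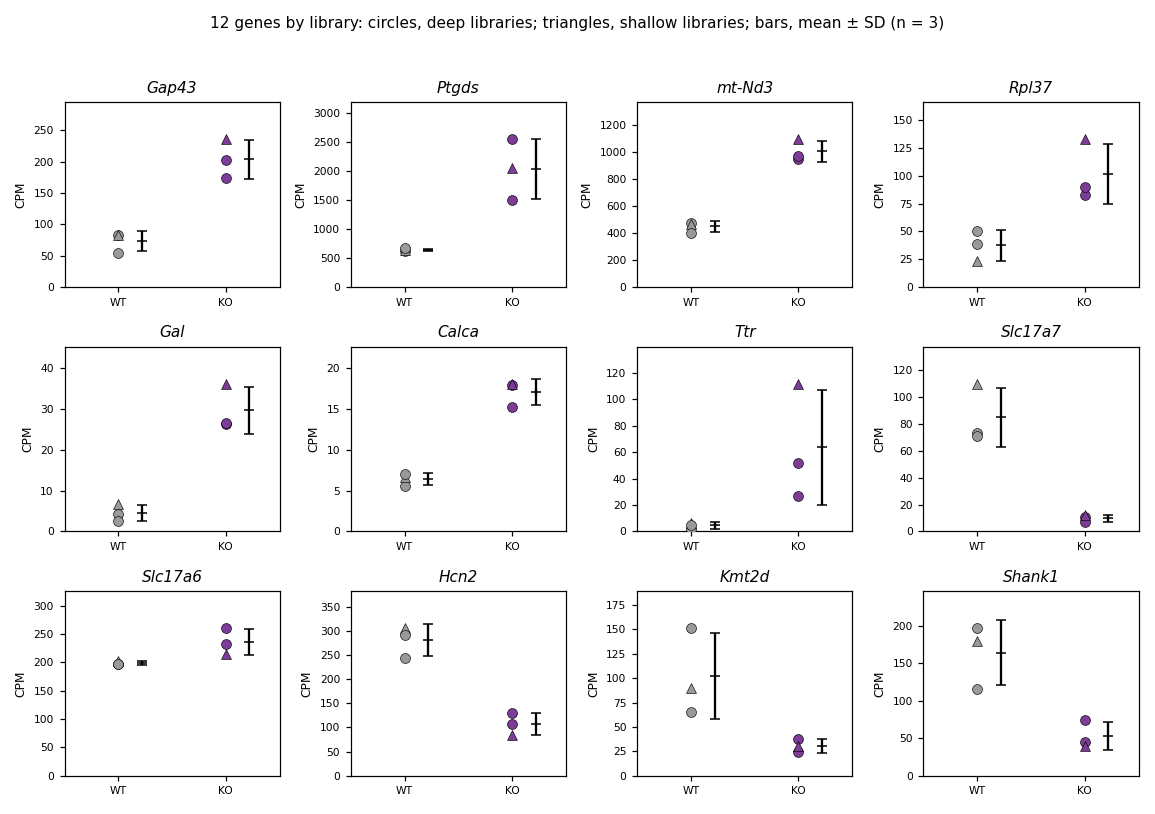
CPM of 12 genes (vertical axes, linear from 0) in the 3 WT and the 3 KO-labelled (KO) libraries, with circles for deep and triangles for shallow libraries and bars for the mean ± SD of n = 3. Slc17a7 falls in every KO-labelled library while Slc17a6 does not, and Gal, Calca, Gap43 and Ptgds lie higher in each KO-labelled library than in each WT library.

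Many genes of mitochondrial respiration and of the ribosome were higher in the KO-labelled libraries. The 13 proteins encoded by mitochondrial DNA are core subunits of the respiratory chain and of ATP synthase. Of these, 12 were called higher and 0 lower, and the list's median log2 fold change was 0.97, beside a median of −0.01 over all genes tested. mt-Nd3, of complex I, was at 478, 469 and 402 CPM in WT 1 to 3 and 948, 973 and 1097 CPM in KO-labelled 1 to 3, with no overlap (log2 fold change 1.16, SE 0.16, adjusted p = 0.000280). mt-Co2, of cytochrome c oxidase, was at 5302, 4748 and 3367 CPM in WT 1 to 3 and 8937, 9267 and 10151 CPM in KO-labelled 1 to 3, again with every KO-labelled library above every WT library (log2 fold change 1.08, SE 0.20, adjusted p = 0.00263). mt-Co3 and mt-Atp6 had log2 fold changes of 1.04 and 1.04 (adjusted p = 0.00371 and 0.00378). All counts on mitochondrial DNA together made up 13.5%, 13.9% and 10.4% of the total in WT 1 to 3 and 20.05%, 21.6% and 21.7% in KO-labelled 1 to 3. The transfer RNA gene mt-Tc was also higher, at 29.1, 23.3 and 33.2 CPM in WT 1 to 3 and 70.8, 65.6 and 63.5 CPM in KO-labelled 1 to 3 (log2 fold change 1.15, SE 0.19, adjusted p = 0.000964).

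The nuclear genes of the respiratory chain followed with smaller differences. Of 75 tested, 39 were called higher and 0 lower, all 75 had a fold change above 0, and the median log2 fold change was 0.61. Cox5b and Cox6b1 encode subunits of cytochrome c oxidase. Cox5b was at 92.8, 99.8 and 77.5 CPM in WT 1 to 3 and 149.8, 150.5 and 193 CPM in KO-labelled 1 to 3 (log2 fold change 0.87, SE 0.18, adjusted p = 0.00396). Cox6b1 was at 73.2, 79.9 and 69.2 CPM in WT 1 to 3 and 125, 115 and 166 CPM in KO-labelled 1 to 3 (log2 fold change 0.84, SE 0.18, adjusted p = 0.00566). In ATP synthase, the subunit gene Atp5o had a log2 fold change of 0.91 (SE 0.19, adjusted p = 0.00460) and Atp5j2 one of 0.96 (SE 0.19, adjusted p = 0.00318). The KO-labelled libraries lay above the WT libraries without overlap in each of these 4 genes, as the 6 libraries did in 26.6% of all genes, in one direction or the other.

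Of 77 tested genes for proteins of the cytosolic ribosome, 48 were called higher and 0 lower, and the median log2 fold change was 0.76. Rpl37 was at 50.7, 23.3 and 38.7 CPM in WT 1 to 3 and 82.7, 89.97 and 133 CPM in KO-labelled 1 to 3, with WT 2 lowest and the groups apart (log2 fold change 1.17, SE 0.21, adjusted p = 0.00205). Rps21 was at 30.5, 36.6 and 24.6 CPM in WT 1 to 3 and 57.5, 52.2 and 48.4 CPM in KO-labelled 1 to 3 (log2 fold change 0.92, SE 0.20, adjusted p = 0.00679). Rpl32, Rps28 and Rps24 had log2 fold changes of 1.00, 1.21 and 0.89 (adjusted p = 0.00348, 0.00425 and 0.00607). Ribosomal protein genes have many processed pseudogenes, and the counting of reads that match several places is not given in the sources used here, so single values of this family are uncertain. Proteins of the mitochondrial ribosome had 6 of 78 genes called higher and 0 lower, with a median of 0.42. Among them Mrpl30 had a log2 fold change of 0.82 (SE 0.20, adjusted p = 0.0133) and Mrps33 one of 0.90 (SE 0.26, adjusted p = 0.0293).

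The proteasome, which degrades ubiquitinated proteins, had 10 of 31 subunit genes called higher and 0 lower, with a median of 0.55. Psmc1, an ATPase of its regulatory cap, was at 140.4, 153 and 118 CPM in WT 1 to 3 and 205, 225 and 242 CPM in KO-labelled 1 to 3 (log2 fold change 0.73, SE 0.17, adjusted p = 0.00908), Psmd12, of the lid, had a log2 fold change of 0.70 (SE 0.17, adjusted p = 0.0124), and Psmb4, of the core, one of 0.67 (SE 0.18, adjusted p = 0.0222).

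These counts depended on the libraries and on gene length. Without WT 3, the numbers called higher were 9 for the cytosolic ribosome, 8 for the nuclear respiratory chain, 2 for the proteasome and 12 for the mitochondrially encoded proteins, and without KO-labelled 3 they were 12, 16, 2 and 7. In the same order they were 30, 21, 3 and 11 without WT 2, 41, 31, 4 and 10 without KO-labelled 1, 35, 24, 4 and 12 without KO-labelled 2 and 67, 53, 19 and 12 without WT 1. For the mitochondrial ribosome the number lay between 1 (without KO-labelled 3) and 19 (without WT 1) in the other 5 fits, while without WT 3 its smallest adjusted p was 0.0681. With each library's trend with gene length removed, 15 cytosolic ribosomal, 8 nuclear respiratory chain, 4 proteasome and 4 mitochondrial ribosomal genes were called higher, and the mitochondrially encoded proteins had a median of 0.43, down from 0.97, with 0 of 13 called by edgeR in place of 12. For mt-Nd3 the log2 fold change was then 0.33 (adjusted p = 0.429). In DESeq2, which gives some genes no adjusted p, 30 of 63 cytosolic ribosomal, 26 of 71 nuclear respiratory chain, 5 of 30 proteasome, 12 of 13 mitochondrially encoded and 1 of 40 mitochondrial ribosomal genes were called higher. None of these 5 lists had a gene called lower in the length fit, without WT 3 or in DESeq2.

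Since these genes moved together, the 250 bases upstream of their start sites were read from the RefSeq promoter table (build GRCm38.p6), for 57 of the ribosomal and 63 of the nuclear respiratory chain genes. The files' own build is GRCm39 in the submitters' processing notes, and no coordinates were converted. Shown are 2 ribosomal and 2 respiratory chain genes called higher that hold the core letters of ETS-family sites, CCGGAAG on either strand, which are printed in capitals.
Rpl37, chr15:5116363-5116612, + strand: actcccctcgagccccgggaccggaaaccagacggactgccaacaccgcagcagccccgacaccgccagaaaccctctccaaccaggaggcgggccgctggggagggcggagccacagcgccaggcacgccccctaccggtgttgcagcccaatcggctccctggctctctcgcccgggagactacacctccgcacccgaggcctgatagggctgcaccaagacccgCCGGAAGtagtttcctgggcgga
Rps21, chr2:180257129-180257378, + strand: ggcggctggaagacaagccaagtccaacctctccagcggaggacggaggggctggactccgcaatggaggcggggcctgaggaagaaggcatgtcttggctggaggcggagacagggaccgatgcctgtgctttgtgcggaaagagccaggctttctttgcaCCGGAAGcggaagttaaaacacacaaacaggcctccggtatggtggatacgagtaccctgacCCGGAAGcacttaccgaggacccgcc
Cox6b1, chr7:30626115-30626364, − strand: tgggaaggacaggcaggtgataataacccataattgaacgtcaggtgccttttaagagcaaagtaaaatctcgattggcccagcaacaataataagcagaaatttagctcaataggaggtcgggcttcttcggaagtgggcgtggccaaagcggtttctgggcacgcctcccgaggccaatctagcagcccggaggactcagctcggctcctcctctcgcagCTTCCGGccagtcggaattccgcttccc
Ndufb7, chr8:83566508-83566757, + strand: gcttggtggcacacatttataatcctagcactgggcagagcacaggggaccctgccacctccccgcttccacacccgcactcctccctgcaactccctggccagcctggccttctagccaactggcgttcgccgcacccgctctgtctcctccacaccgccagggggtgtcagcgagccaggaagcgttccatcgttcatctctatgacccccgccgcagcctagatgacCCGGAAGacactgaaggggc
Counted from the start site, the match began at position −23 in Rpl37, −28 in Cox6b1 and −20 in Ndufb7, and at −88 and −26 in Rps21. Ndufb7, a complex I subunit, was at 38.4, 29.9 and 28.02 CPM in WT 1 to 3 and 58.3, 60.4 and 48.4 CPM in KO-labelled 1 to 3 (log2 fold change 0.81, SE 0.20, adjusted p = 0.0133). The letters occurred in 29.8% of the 57 ribosomal and 17.5% of the 63 respiratory chain promoters, beside 7.05% of all 27025 promoters of the table and 12.8% of the 11392 that belong to tested genes. Over all called genes they occurred in 14.8% of 378 promoters of genes that were higher and in 9.58% of 668 of genes that were lower. The GC box GGGCGG was found in 47.6% of the former and 68.6% of the latter, beside 58.1% of tested genes, and the cyclic AMP response element TGACGTCA in 4.23% and 2.54%, beside 2.72%. Each motif was searched alone on both strands, and 1 base could belong to matches of more than 1 motif. A match says only that the letters are there.

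**Figure D2:**
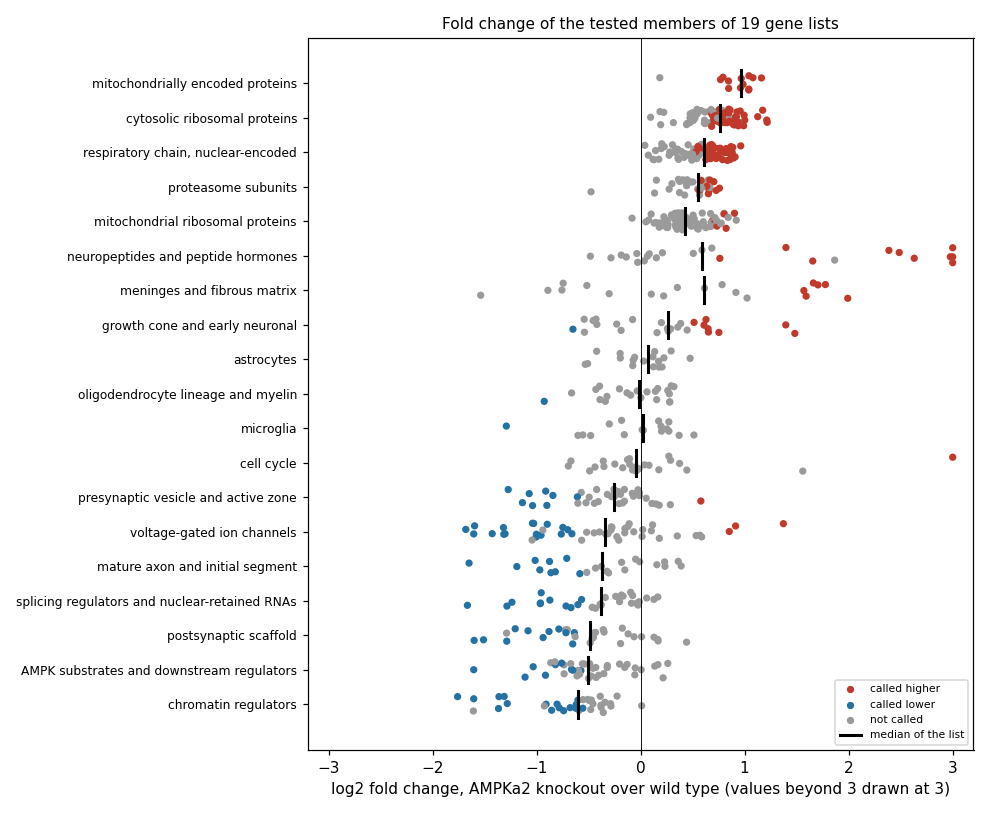
Log2 fold change of KO-labelled over WT (horizontal axis) for each tested member of 19 gene lists, with genes called higher in red, genes called lower in blue, other genes in grey and the list median as a black bar. Values beyond 3 are drawn at 3. Medians lie at 0.97 for mitochondrially encoded proteins and 0.76 for the cytosolic ribosome at one end and at −0.60 for chromatin regulators at the other, with the glial lists near 0.

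Of 34 tested chromatin regulators, 16 were called lower and 0 higher, with a median log2 fold change of −0.60. In DESeq2 9 of 29 with an adjusted p were called lower. Kmt2d, a histone H3 lysine methyltransferase of enhancers, was at 65.7, 89.8 and 152 CPM in WT 1 to 3 and 24.2, 38.1 and 30.2 CPM in KO-labelled 1 to 3. All KO-labelled libraries lay below all WT libraries, WT 3 was the highest, and the log2 fold change was −1.76 (SE 0.26, adjusted p = 0.000482). Its relative Kmt2b had a log2 fold change of −1.36 (SE 0.24, adjusted p = 0.00177), and Chd7, a nucleosome remodeler, one of −1.31 (SE 0.28, adjusted p = 0.00627). With the length trend removed, 6 genes of this list were called lower. With 1 library left out the number was 3 (without WT 3), 6 (without KO-labelled 3), 10 (without WT 2 or without KO-labelled 1), 12 (without KO-labelled 2) or 25 (without WT 1).

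Splicing regulators and RNAs that stay in the nucleus had 11 of 30 genes called lower and 0 higher, with a median of −0.38. Leng8, a gene of nuclear RNA processing, was at 93.4, 73.2 and 129 CPM in WT 1 to 3 and 30.1, 35.4 and 33.2 CPM in KO-labelled 1 to 3, without overlap (log2 fold change −1.66, SE 0.20, adjusted p = 4.52e-05). Srrm2, a scaffold of nuclear speckles, was at 335, 336 and 528 CPM in WT 1 to 3 and 168, 199 and 133 CPM in KO-labelled 1 to 3 (log2 fold change −1.24, SE 0.19, adjusted p = 0.000677), and Scaf1, a splicing factor gene outside this list, had a log2 fold change of −1.21 (SE 0.18, adjusted p = 0.000512). The long noncoding RNAs Miat and Meg3 had log2 fold changes of −1.29 (SE 0.24, adjusted p = 0.00287) and −0.87 (SE 0.20, adjusted p = 0.00951). Neat1, the RNA of paraspeckles, was at 199.7, 79.9 and 210.4 CPM in WT 1 to 3 and 89.7, 85.2 and 106 CPM in KO-labelled 1 to 3. It was lower in the deep KO-labelled libraries only, and the shallow pair went the other way (log2 fold change −0.96, SE 0.22, adjusted p = 0.00840). Snhg11, a noncoding host gene of neurons, had a log2 fold change of −0.96 (SE 0.19, adjusted p = 0.00360). With the length trend removed 6 genes of the list were called lower, and with 1 library left out between 6 (without KO-labelled 3) and 13 (without WT 1).

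In both synapse lists more genes were called lower than higher. Of 31 genes of the postsynaptic scaffold, 11 were called lower and 0 higher (median −0.48). Shank1 and Shank3, scaffolds beneath glutamate receptors, stood at the head of this list. Shank1 was at 115, 179.7 and 197 CPM in WT 1 to 3 and 44.8, 74.4 and 39.3 CPM in KO-labelled 1 to 3 (log2 fold change −1.51, SE 0.23, adjusted p = 0.000512), and Shank3 was at 35.1, 33.3 and 50.4 CPM in WT 1 to 3 and 9.78, 19.2 and 3.02 CPM in KO-labelled 1 to 3 (log2 fold change −1.60, SE 0.28, adjusted p = 0.00167), with no overlap in either gene. Dlgap3, which links Shank proteins to PSD-95, had a log2 fold change of −1.21 (SE 0.20, adjusted p = 0.00115). On the presynaptic side, 8 of 37 genes were called lower and 1 higher (median −0.25). Syn1, which tethers synaptic vesicles, was at 229.6, 263 and 263 CPM in WT 1 to 3 and 137, 137 and 118 CPM in KO-labelled 1 to 3 (log2 fold change −0.91, SE 0.16, adjusted p = 0.00167), and Dnm1, which pinches vesicles off the membrane, was at 419, 502 and 662 CPM in WT 1 to 3 and 237, 254 and 227 CPM in KO-labelled 1 to 3 (log2 fold change −1.14, SE 0.18, adjusted p = 0.000687). The active zone genes Bsn and Ppfia3 and the adhesion gene Nrxn2 had log2 fold changes of −1.27, −1.07 and −1.04 (adjusted p = 0.00369, 0.00220 and 0.00104). The gene called higher was Syt1, the calcium sensor of vesicle release, at 222, 246 and 184 CPM in WT 1 to 3 and 373, 248 and 341 CPM in KO-labelled 1 to 3 (log2 fold change 0.58, SE 0.18, adjusted p = 0.0457).

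Voltage-gated ion channels had 17 of 47 genes called lower and 3 higher (median −0.34). Hcn2, a pacemaker channel gated by cyclic nucleotides, was at 243, 306 and 292 CPM in WT 1 to 3 and 130.1, 108 and 84.6 CPM in KO-labelled 1 to 3, and every KO-labelled library was below every WT library (log2 fold change −1.30, SE 0.18, adjusted p = 0.000182). The calcium channel genes Cacna1a (P/Q-type), Cacna1i and Cacna1g (T-type) had log2 fold changes of −1.43, −1.60 and −1.31 (adjusted p = 0.000664, 0.00143 and 0.00155). The 3 genes called higher, Scn3a, Scn9a and Scn3b, encode sodium channel subunits, of which Scn9a was at 7.97, 6.66 and 11.1 CPM in WT 1 to 3 and 28.01, 20.8 and 24.2 CPM in KO-labelled 1 to 3 (log2 fold change 1.37, SE 0.26, adjusted p = 0.00285). Receptors for glutamate, GABA and glycine had 6 of 41 genes called lower and 1 higher (median −0.14). Grin1, the obligatory NMDA receptor subunit, had a log2 fold change of −0.79 (SE 0.18, adjusted p = 0.00830) and Grik5, of kainate receptors, one of −1.02 (SE 0.21, adjusted p = 0.00429). Glra1, the adult glycine receptor subunit, was at 18.04, 26.6 and 83.7 CPM in WT 1 to 3 and 9.71, 18.8 and 6.04 CPM in KO-labelled 1 to 3, with WT 3 highest and overlapping groups. Its log2 fold change was −1.79 (SE 0.40, adjusted p = 0.00803), and −0.46 (adjusted p = 0.516) without WT 3. The gene called higher was Gabrg1, a GABA-A receptor subunit (log2 fold change 0.91, SE 0.24, adjusted p = 0.0190). Called lower in DESeq2 were 11 of 37 channel, 8 of 25 postsynaptic, 9 of 34 presynaptic and 3 of 29 receptor genes. These totals count genes with an adjusted p there. The median lengths were 9458, 9125, 7899 and 6658 bases in the same order. With the trend with gene length removed, Grin1 missed the threshold (log2 fold change −0.55, adjusted p = 0.0516). The other genes of these lists given with an adjusted p passed. With 1 library left out, the number called lower ran from 8 (without KO-labelled 3) to 22 (without WT 1) for channels, from 5 (without KO-labelled 1 or 3) to 15 (without WT 1) for the postsynaptic list, from 5 (without WT 3 or KO-labelled 3) to 12 (without WT 1) for the presynaptic list and from 2 (without WT 3 or KO-labelled 3) to 10 (without WT 1 or KO-labelled 2) for receptors.

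Genes of the mature axon and of its initial segment had 9 of 23 called lower and 0 higher (median −0.38), while genes of growth cones and young neurons had 8 of 25 called higher and 1 lower (median 0.27). Ank1, an ankyrin that anchors membrane proteins to spectrin, was at 171, 193 and 296 CPM in WT 1 to 3 and 61.9, 89.7 and 48.4 CPM in KO-labelled 1 to 3 (log2 fold change −1.65, SE 0.22, adjusted p = 0.000139). Sptbn4, the spectrin of initial segments and nodes, had a log2 fold change of −1.19 (SE 0.22, adjusted p = 0.00205), and Map1a, a microtubule protein of mature neurons, one of −1.01 (SE 0.19, adjusted p = 0.00226). Cntn2, an adhesion protein beside the nodes, had one of −0.88 (SE 0.17, adjusted p = 0.00344). In the growth cone list Gap43, a membrane protein of growing axons, was at 83.4, 83.2 and 55.2 CPM in WT 1 to 3 and 202, 174 and 236 CPM in KO-labelled 1 to 3. Its values in the KO-labelled libraries were all above those of WT, with a fitted fold of 2.79 (log2 fold change 1.48, SE 0.19, adjusted p = 0.000124). Stmn2, which destabilises microtubules in growth cones, was at 250.2, 239.6 and 229 CPM in WT 1 to 3 and 439.7, 369.5 and 402 CPM in KO-labelled 1 to 3 (log2 fold change 0.75, SE 0.16, adjusted p = 0.00525), and Tubb3, the neuronal β-tubulin, had a log2 fold change of 0.65 (SE 0.18, adjusted p = 0.0220). Nnat, an imprinted gene of developing neurons, was at 69.3, 56.6 and 57.6 CPM in WT 1 to 3 and 239, 106 and 136 CPM in KO-labelled 1 to 3 (log2 fold change 1.40, SE 0.23, adjusted p = 0.00104). Dcx and Sox11, markers of young neurons in the same list, were not called. Dcx was at 11.8, 19.97 and 15.99 CPM in WT 1 to 3 and 11.03, 9.78 and 3.02 CPM in KO-labelled 1 to 3. It was thus lower in each KO-labelled library than in every WT library. Of the 25 growth cone genes, 9 had a fold change below 0. The called member that was lower was Dbn1, an actin-binding protein of dendritic spines (log2 fold change −0.65, SE 0.19, adjusted p = 0.0301). With the length trend removed 5 axon genes were called lower and 4 growth cone genes higher, and with 1 library left out these ran from 5 (without WT 3) to 14 (without WT 1) and from 4 (without KO-labelled 1 or 3) to 10 (without WT 1).

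The direction of a call went with the length of the gene. Tested genes were divided by length into 5 classes of equal size. In the shortest class (up to 1750 bases), 357 genes (10.3%) were called higher and 22 lower, with a median log2 fold change of 0.41. In the longest class (7134 bases and more), 23 were called higher and 413 (11.9%) lower, with a median of −0.23. The median length was 1781 bases for the cytosolic ribosome and 1801 for the nuclear respiratory chain, and 12334 for chromatin regulators, 9458 for ion channels and 10248 for mature axon genes. Once the trend with length was removed within each library, 901 genes were called, 369 higher and 532 lower, of which 737 were among the 1555. The shortest class then held 36 genes called higher and 51 lower, and the longest 82 and 158. Scn9a, at 12680 bases, was called higher before and after this step. Whether the length trend comes from the tissue or from the RNA and its processing was not tested.

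**Figure D3:**
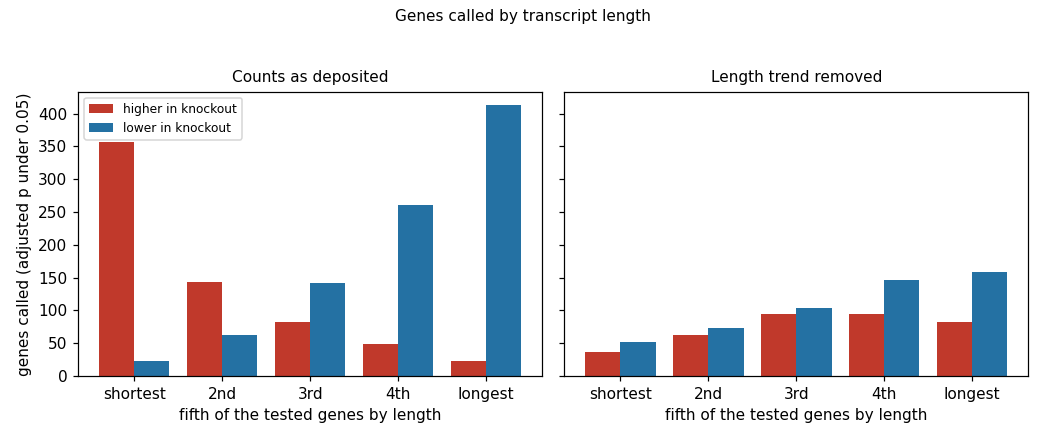
Number of genes called higher (red) and lower (blue) in the KO-labelled libraries (vertical axis) in 5 length classes of equal size of the 17397 tested genes (horizontal axis), with the counts as deposited on the left and the length trend removed on the right. On the left the calls run from 357 higher and 22 lower in the shortest class to 23 and 413 in the longest, and on the right from 36 and 51 to 82 and 158.

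Of 42 listed neuropeptide genes, 25 passed the filter, of which 10 were called higher and 0 lower, 6 of the 25 had a fold change below 0, and the median log2 fold change was 0.59. DESeq2 gave only 6 of the 25 an adjusted p and called 1. Beside Gal and Gcg, Calca, the precursor of calcitonin gene-related peptide, was at 5.60, 6.66 and 7.06 CPM in WT 1 to 3 and 17.9, 15.3 and 18.1 CPM in KO-labelled 1 to 3, which is higher in each KO-labelled library (log2 fold change 1.40, SE 0.28, adjusted p = 0.00365). Cartpt, the precursor of CART peptides, was at 2.44, 13.3 and 2.33 CPM in WT 1 to 3 and 11.5, 17.2 and 12.1 CPM in KO-labelled 1 to 3. The deep libraries were apart, as they were in one direction or the other in 55.3% of all genes, and shallow WT 2 lay among the KO-labelled values (log2 fold change 2.39, SE 0.38, adjusted p = 0.000835). Vip was at 0.593, 3.33 and 0.875 CPM in WT 1 to 3 and 6.61, 3.11 and 6.04 CPM in KO-labelled 1 to 3 (log2 fold change 2.63, SE 0.53, adjusted p = 0.00379). Nppb, a natriuretic peptide, had 3 counts in the deep WT libraries and 44 in the deep KO-labelled ones, a ratio of 15.5 with a 95% counting interval of 4.97 to 78.1. Penk, the enkephalin precursor, was at 159, 109.8 and 101 CPM in WT 1 to 3 and 154, 236 and 272 CPM in KO-labelled 1 to 3, with overlapping groups (log2 fold change 0.76, SE 0.21, adjusted p = 0.0243). Peptide genes not called included Sst, Npy, Tac1 and Cck. With the length trend removed, 8 peptide genes were called higher, and with 1 library left out between 6 (without KO-labelled 3) and 13 (without WT 1). Without KO-labelled 2, 4 were called lower beside 10 higher.

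Crh and Trh, for the corticotropin- and thyrotropin-releasing hormones, rested on single libraries. Crh was at 6.12, 6.66 and 2.28 CPM in WT 1 to 3 and 73.5, 1.68 and 24.2 CPM in KO-labelled 1 to 3, so that KO-labelled 2 was the lowest of all. Its log2 fold change was 3.07 (SE 0.75, adjusted p = 0.0132) with all libraries and −0.10 (adjusted p = 0.964) without KO-labelled 1. Trh was at 11.4, 16.6 and 1.98 CPM in WT 1 to 3 and 73.3, 5.89 and 39.3 CPM in KO-labelled 1 to 3, with KO-labelled 2 within the range of WT, and its log2 fold change went from 2.49 (SE 0.64, adjusted p = 0.0183) to 0.67 (adjusted p = 0.506) without KO-labelled 1.

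Genes that load or make transmitters changed in both directions, with 5 of 23 called higher and 2 lower (median 0.08). Slc17a7 fell, while Slc17a6, which encodes VGLUT2, the main vesicular glutamate transporter of the brainstem, was at 197, 203 and 197 CPM in WT 1 to 3 and 232, 261 and 215 CPM in KO-labelled 1 to 3 and was not called (log2 fold change 0.27, SE 0.16, adjusted p = 0.312). Slc17a8, for VGLUT3, was not called either (log2 fold change 1.00, SE 0.48, adjusted p = 0.201). Of the glycine transporters, Slc6a9, the glial form, was at 86.2, 83.2 and 93.9 CPM in WT 1 to 3 and 52.7, 44.4 and 33.2 CPM in KO-labelled 1 to 3 (log2 fold change −0.93, SE 0.18, adjusted p = 0.00344), and Slc6a5, the neuronal form, had a log2 fold change of −0.41 (SE 0.18, adjusted p = 0.169). Slc5a7, which carries choline into cholinergic terminals, was at 6.39, 63.2 and 50.2 CPM in WT 1 to 3 and 133, 66.5 and 84.6 CPM in KO-labelled 1 to 3. All KO-labelled values were above those of WT, among which WT 1 was far the lowest (log2 fold change 1.60, SE 0.45, adjusted p = 0.0291), and without WT 1 the log2 fold change was 0.88 (adjusted p = 0.00480). Chat, the acetylcholine-synthesising enzyme, was at 1.51, 3.33 and 13.8 CPM in WT 1 to 3 and 22.5, 13.7 and 21.2 CPM in KO-labelled 1 to 3 and was not called (log2 fold change 1.30, SE 0.48, adjusted p = 0.0912).

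Genes of serotonergic neurons were high in KO-labelled 1 and 3 and not in KO-labelled 2. Tph2, the rate-limiting enzyme of serotonin synthesis, was at 2.77, 6.66 and 0.700 CPM in WT 1 to 3 and 134, 3.63 and 69.5 CPM in KO-labelled 1 to 3. Slc6a4, the serotonin transporter, was at 0.461, 16.6 and 0.875 CPM in WT 1 to 3 and 70.2, 1.49 and 39.3 CPM in KO-labelled 1 to 3. For both genes KO-labelled 2 lay within the range of WT once the shallow WT 2 is counted, and the log2 fold changes were 5.26 (SE 0.85, adjusted p = 0.000835) for Tph2 and 5.31 (SE 0.97, adjusted p = 0.00209) for Slc6a4. Without KO-labelled 1 they were 3.50 (adjusted p = 1.27e-06) and 3.11 (adjusted p = 0.00640). Slc18a2, the vesicular monoamine transporter, was at 12.05, 9.98 and 7.53 CPM in WT 1 to 3 and 103, 12.05 and 33.2 CPM in KO-labelled 1 to 3, and Ddc, which makes serotonin and dopamine from their precursors, was at 14.02, 6.66 and 7.53 CPM in WT 1 to 3 and 47.6, 13.2 and 33.2 CPM in KO-labelled 1 to 3. Slc18a2 had a log2 fold change of 2.46 (SE 0.49, adjusted p = 0.00371) and of 0.73 (adjusted p = 0.323) without KO-labelled 1, and Ddc had 1.55 (SE 0.37, adjusted p = 0.0118) and 0.72 (adjusted p = 0.310). Th and Dbh, of catecholamine synthesis, were not called. In bulk tissue, fewer cells of a type and less RNA per cell cannot be told apart.

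Transcription factors that mark position moved with the same libraries. Of 19 tested Hox genes 0 were called in edgeR, 3 had an unadjusted p under 0.05, all lower, and DESeq2 called 0 of the 4 to which it gave an adjusted p. Without KO-labelled 2, 8 were called lower, and without WT 1, 1 was. Summed over the list, Hox genes were at 425.4, 282.8 and 294.2 CPM in WT 1 to 3 and at 78.1, 380.1 and 223.6 CPM in KO-labelled 1 to 3. Hoxb8 was at 92.4, 49.9 and 76.7 CPM in WT 1 to 3 and 3.30, 75.98 and 36.3 CPM in KO-labelled 1 to 3, and Hoxb5 at 68.1, 63.2 and 36.5 CPM in WT 1 to 3 and 9.12, 50.1 and 24.2 CPM in KO-labelled 1 to 3. KO-labelled 1 was thus low for genes of the caudal hindbrain and spinal cord while KO-labelled 2 was within the range of WT. Of 17 midbrain and diencephalon factors, 4 were called higher and 1 lower, 8 had a fold change below 0, and the median log2 fold change was 0.007. Pou4f1 was at 5.73, 19.97 and 5.14 CPM in WT 1 to 3 and 44.6, 7.64 and 9.07 CPM in KO-labelled 1 to 3, Shox2 at 1.51, 3.33 and 3.85 CPM in WT 1 to 3 and 24.97, 3.37 and 6.04 CPM in KO-labelled 1 to 3 and Gata3 at 0.461, 0 and 1.28 CPM in WT 1 to 3 and 6.41, 1.04 and 3.02 CPM in KO-labelled 1 to 3, each highest in KO-labelled 1. Nkx6-1 had a log2 fold change of 1.83 (SE 0.56, adjusted p = 0.0404). Without KO-labelled 1, the 4 were no longer called (0.782, 0.780, 0.848 and 0.800 as adjusted p), while Barhl1 was (adjusted p = 0.0383). Barhl1 was at 1.71, 3.33 and 3.21 CPM in WT 1 to 3 and 0.198, 0.389 and 0 CPM in KO-labelled 1 to 3 (log2 fold change −3.06, SE 0.64, adjusted p = 0.00493 with all libraries). It missed the threshold without WT 3 (adjusted p = 0.0847) and also belongs to the cerebellar list. Whether the tissue taken differed in its position between libraries was not tested.

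**Figure D4:**
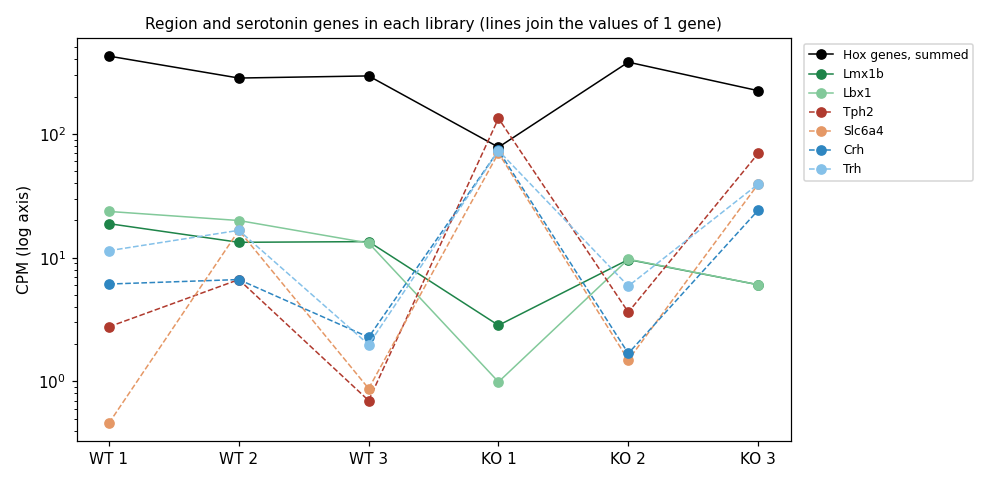
CPM on a log axis of the summed Hox genes, of Lmx1b and Lbx1 (solid lines) and of Tph2, Slc6a4, Crh and Trh (dashed lines) in each of the 6 libraries, with a line joining the values of 1 gene. KO-labelled 1 is lowest for the Hox genes, at 78.1 CPM, and for Lmx1b, at 2.84 CPM, and highest for Tph2, at 134 CPM, while KO-labelled 2 lies within the range of WT for the Hox genes, Tph2, Slc6a4 and Trh.

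Of 20 factors of breathing-related and visceral hindbrain neurons, 6 were called lower and 3 higher, and those called lower were 1 without KO-labelled 1 or 3, 2 without WT 2 or WT 3 and 5 without WT 1 or KO-labelled 2. DESeq2 gave 2 of the 20 an adjusted p and called 0. Lmx1b (ENSMUSG00000038765), a LIM-homeodomain factor required for serotonergic neurons and dorsal hindbrain interneurons, was at 18.8, 13.3 and 13.5 CPM in WT 1 to 3 and 2.84, 9.65 and 6.04 CPM in KO-labelled 1 to 3. The KO-labelled values all lay below those of WT (mean 6.18 ± 3.41 against 15.2 ± 3.14 CPM, SD, n = 3 each, two-sided exact permutation p = 0.1, the smallest possible). In edgeR the log2 fold change was −1.35 (SE 0.37, adjusted p = 0.0233). It was −0.76 (adjusted p = 0.270) without KO-labelled 1, −1.36 (adjusted p = 0.0502) without WT 2 and −1.31 (adjusted p = 0.0780) without KO-labelled 3. Among the 4 deep libraries, Lbx1 and Tlx3, which act with Lmx1b in dorsal interneurons, were also lowest in KO-labelled 1. Lbx1 was at 23.6, 19.97 and 13.1 CPM in WT 1 to 3 and 0.991, 9.72 and 6.04 CPM in KO-labelled 1 to 3, with a log2 fold change of −1.78 (SE 0.49, adjusted p = 0.0254) and of −0.97 (adjusted p = 0.103) without KO-labelled 1. Tlx3 was at 4.02, 3.33 and 2.74 CPM in WT 1 to 3 and 0.0661, 1.49 and 0 CPM in KO-labelled 1 to 3, with −2.13 (SE 0.66, adjusted p = 0.0459) and −1.23 (adjusted p = 0.317). Pax2, of GABAergic and glycinergic interneurons, was at 10.3, 6.66 and 15.6 CPM in WT 1 to 3 and 2.05, 5.31 and 0 CPM in KO-labelled 1 to 3 (log2 fold change −1.81, SE 0.39, adjusted p = 0.00582). Maf, of the same list, was lower as well, with a log2 fold change of −0.80 (SE 0.23, adjusted p = 0.0333). Of those called higher, Tbx20, a factor of cranial motor neurons, was higher in the 2 deep KO-labelled libraries than in the 2 deep WT libraries and had 0 counts in KO-labelled 3 (log2 fold change 2.24, SE 0.67, adjusted p = 0.0380).

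Few glial markers were called. Of 18 astrocyte genes 0 were called in edgeR, with 1 higher and 2 lower at an unadjusted p under 0.05, and DESeq2 called 1 lower. Of 22 oligodendrocyte and myelin genes 1 was called, Myrf, the factor that drives myelin gene expression, at 166, 113 and 179 CPM in WT 1 to 3 and 96.5, 74.1 and 78.6 CPM in KO-labelled 1 to 3 (log2 fold change −0.93, SE 0.18, adjusted p = 0.00357), while Mbp was not. Of 17 microglial genes 1 was called, the lysosomal gene Laptm5, lower at −1.29 (adjusted p = 0.00306). The summed astrocyte markers lay between 12415 and 15738 CPM in WT and between 13378 and 14657 CPM in the KO-labelled libraries. The neural progenitor and Notch list had 1 of 18 genes called, Notch1, lower (log2 fold change −1.30, SE 0.29, adjusted p = 0.00829), with an adjusted p of 0.0891 without WT 3. Immediate early genes had 1 of 15 called, Arc, lower. Without KO-labelled 2, 2 of this list were called lower, and the smallest adjusted p lay between 0.0656 and 0.132 in the other 5 fits with 1 library left out.

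Of 19 genes of the meninges and fibrous matrix, 6 were called higher and 0 lower, and 6 had a fold change below 0. With 1 library left out, between 4 (without KO-labelled 3) and 9 (without WT 3 or KO-labelled 2) were called higher, 3 were called lower without WT 1, and 1 was without KO-labelled 1 or 2. DESeq2 gave 5 of the 19 an adjusted p and called 1. Ptgds, which makes prostaglandin D2 in meningeal and choroid plexus cells, was at 628, 636 and 667 CPM in WT 1 to 3 and 2552, 1505 and 2055 CPM in KO-labelled 1 to 3, a fitted fold of 3.16 (log2 fold change 1.66, SE 0.19, adjusted p = 1.87e-05). Aldh1a2, the retinoic acid-synthesising enzyme of the meninges, was at 4.35, 6.66 and 10.2 CPM in WT 1 to 3 and 26.4, 22.7 and 27.2 CPM in KO-labelled 1 to 3 (log2 fold change 1.78, SE 0.30, adjusted p = 0.00124), and Ogn, a small proteoglycan, at 4.67, 6.66 and 15.2 CPM in WT 1 to 3 and 60.8, 23.1 and 21.2 CPM in KO-labelled 1 to 3 (log2 fold change 1.99, SE 0.39, adjusted p = 0.00324). Dcn, Slc6a13 and Islr had log2 fold changes of 1.57, 1.70 and 1.59 (adjusted p = 0.00826, 0.00720 and 0.0136). The collagen genes Col1a1, Col1a2 and Col3a1 of the same list were not called. Of these, Col1a1 had a log2 fold change of −1.54 (adjusted p = 0.0860), of −2.24 (adjusted p = 2.52e-06) without WT 1 and of 0.97 (adjusted p = 0.251) without WT 3. The summed level of the list was 773.5, 795.3 and 1075 CPM in WT and 3068, 1796 and 2372 CPM in the KO-labelled libraries. Ptgds alone made up most of this sum in each library, so the sum does not describe the other members.

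Of 11 tested choroid plexus genes 3 were called higher and 0 lower, in each fit that left out 1 library as well. Ttr, the thyroxine carrier of the choroid plexus, was at 1.84, 6.66 and 5.19 CPM in WT 1 to 3 and 52.1, 26.6 and 112 CPM in KO-labelled 1 to 3 (log2 fold change 3.80, SE 0.43, adjusted p = 1.87e-05), and Slc13a4 at 4.48, 3.33 and 9.16 CPM in WT 1 to 3 and 26.2, 15.2 and 18.1 CPM in KO-labelled 1 to 3 (log2 fold change 1.61, SE 0.32, adjusted p = 0.00372). Kcnj13 had 3 counts in the deep WT libraries against 44 in the deep KO-labelled ones, the same ratio as Nppb. Of the 11 genes, 8 had a fold change above 0 and 3 below. The 3 were Kl, Slc4a5 and F5 (log2 fold changes −0.41, −0.36 and −0.15), which were not called, and neither were Clic6, Enpp2 and Prlr. Folr1, Kcne2 and Aqp1 did not pass the filter. Aqp1 had 7, 0 and 48 counts in WT 1 to 3 and 1, 3 and 0 in KO-labelled 1 to 3, and Folr1 had 5, 0 and 4 and then 4, 11 and 1. Rbp4, the retinol carrier, was at 2.96, 3.33 and 4.96 CPM in WT 1 to 3 and 17.4, 12.8 and 15.1 CPM in KO-labelled 1 to 3 (log2 fold change 1.93, SE 0.32, adjusted p = 0.000964), and Wif1, a secreted Wnt inhibitor, at 0.724, 0 and 0.292 CPM in WT 1 to 3 and 4.23, 5.31 and 12.1 CPM in KO-labelled 1 to 3 (log2 fold change 3.39, SE 0.56, adjusted p = 0.000964). In vessels, 2 of 21 genes were called higher, Vtn (vitronectin, of pericytes) and Acta2 (smooth muscle actin). Of the 21, 12 had a fold change below 0, and the median log2 fold change was −0.04. Other pericyte genes were not called. Pdgfrb, Cspg4, Abcc9 and Rgs5 had log2 fold changes of −0.53, −0.66, −0.43 and −0.19, and Kcnj8 one of 0.55. Vtn was at 38.6, 59.9 and 44.4 CPM in WT 1 to 3 and 106, 74.1 and 121 CPM in KO-labelled 1 to 3 (log2 fold change 1.13, SE 0.21, adjusted p = 0.00205), and Acta2 was at 2.63, 6.66 and 4.26 CPM in WT 1 to 3 and 36.6, 5.38 and 9.07 CPM in KO-labelled 1 to 3, a difference that fell from 2.46 (SE 0.51, adjusted p = 0.00466) to 0.73 (adjusted p = 0.518) without KO-labelled 1. The part of meningeal, choroid plexus and vessel tissue in the other differences was not tested.

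Skeletal muscle genes had 13 of 17 called lower, and 0 of the 1 with an adjusted p in DESeq2. Ttn, for the giant sarcomere protein titin, was at 4.54, 3.33 and 198 CPM in WT 1 to 3 and 1.65, 4.15 and 3.02 CPM in KO-labelled 1 to 3, and Neb, for nebulin, was at 1.38, 0 and 81.4 CPM in WT 1 to 3 and 0.0661, 0.972 and 0 CPM in KO-labelled 1 to 3. Both were high in WT 3 alone, as was Cmya5 at 6.25, 6.66 and 39.7 CPM in WT 1 to 3 and 1.72, 2.40 and 3.02 CPM in KO-labelled 1 to 3, and without WT 3 the smallest adjusted p among the 16 genes tested was 0.0747. Cerebellar genes had 3 of 17 called lower and 1 higher, and without WT 3 the smallest adjusted p was 0.0847. Fat2, of cerebellar granule cells, was at 2.17, 3.33 and 15.5 CPM in WT 1 to 3 and 0.661, 0.324 and 3.02 CPM in KO-labelled 1 to 3, and Neurod2, the 1 forebrain factor of 7 that was called, at 5.40, 16.6 and 9.22 CPM in WT 1 to 3 and 1.59, 3.43 and 3.02 CPM in KO-labelled 1 to 3. The adjusted p of Neurod2 was 0.161 without WT 3, 0.156 without KO-labelled 1 and 0.0538 without KO-labelled 3, and without KO-labelled 2, 4 forebrain factors were called lower. Red cell genes had 2 of 6 called higher, Hbb-bs (log2 fold change 0.60, SE 0.18, adjusted p = 0.0347) and Hba-a2 (log2 fold change 0.61, SE 0.19, adjusted p = 0.0481), near-identical to their neighbouring copies, and 0 were called without WT 1, WT 2, KO-labelled 1 or KO-labelled 3. With the length trend removed Hbb-bs and Hba-a2 had log2 fold changes of 0.088 and 0.078 (adjusted p = 0.868 and 0.881). Of the pituitary list and of the Y-linked and X-inactivation list, 0 of 2 and 0 of 1 tested genes were called, and 0 had an unadjusted p under 0.05.

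Genes that act downstream of AMPK were lower in part. Of 39 tested genes for substrates and regulators, 9 were called lower and 0 higher (median −0.50), 2 of 26 in DESeq2 and 2 with the length trend removed. With 1 library left out, 1 (without WT 3) to 18 (without WT 1) were called lower, and 2 to 5 in the other 4 fits. Crtc1, a CREB coactivator that AMPK-related kinases phosphorylate, was at 55.4, 49.9 and 68.1 CPM in WT 1 to 3 and 24.3, 36.9 and 18.1 CPM in KO-labelled 1 to 3, with no overlap (log2 fold change −1.03, SE 0.22, adjusted p = 0.00524). Srebf1, the master factor of fatty acid synthesis, was at 77.9, 56.6 and 78.03 CPM in WT 1 to 3 and 51.5, 40.2 and 54.4 CPM in KO-labelled 1 to 3 (log2 fold change −0.66, SE 0.19, adjusted p = 0.0299), and Srebf2, its counterpart for cholesterol, at 133, 149.7 and 138 CPM in WT 1 to 3 and 102, 94.7 and 69.5 CPM in KO-labelled 1 to 3 (log2 fold change −0.57, SE 0.17, adjusted p = 0.0371). Hdac4, Hdac7 and Crtc3 had log2 fold changes of −0.82, −1.11 and −0.91 (adjusted p = 0.0237, 0.0128 and 0.0437), and Gbf1 and Arhgef2 of −0.65 and −0.76 (adjusted p = 0.0344 and 0.0320). Ppargc1b, a coactivator of mitochondrial genes, was at 3.49, 19.97 and 11.3 CPM in WT 1 to 3 and 1.78, 3.63 and 3.02 CPM in KO-labelled 1 to 3, with overlapping groups (log2 fold change −1.60, SE 0.48, adjusted p = 0.0376). Acaca, Ulk1, Tsc2, Ppargc1a and Tfam were not called. Of 29 genes of cholesterol and fatty acid synthesis, 1 was called higher, Msmo1 (log2 fold change 0.60, SE 0.19, adjusted p = 0.0478), and 1 lower, Fasn, the fatty acid synthase, at 265, 249.6 and 375 CPM in WT 1 to 3 and 203, 168 and 172 CPM in KO-labelled 1 to 3 (log2 fold change −0.73, SE 0.18, adjusted p = 0.0130). Fasn missed the threshold without WT 3 or KO-labelled 3 and with the length trend removed (adjusted p = 0.0874, 0.0768 and 0.118). Msmo1 missed it without WT 2, WT 3, KO-labelled 1 or KO-labelled 3 (adjusted p = 0.101, 0.222, 0.220 and 0.116). Of 28 genes of glycolysis and the hypoxia response, 1 was called, Tpi1, higher (log2 fold change 0.54, SE 0.16, adjusted p = 0.0327). No gene of this list was called by edgeR without WT 2 or without any 1 of the KO-labelled libraries, where the smallest adjusted p lay between 0.0509 and 0.17, and 4 were called without WT 1. With the length trend removed the adjusted p of Tpi1 was 0.117.

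Of the remaining genes chosen by size of change and p, Sncg, which encodes γ-synuclein, was at 18.04, 29.9 and 27.8 CPM in WT 1 to 3 and 164, 72.7 and 136 CPM in KO-labelled 1 to 3 (log2 fold change 2.37, SE 0.27, adjusted p = 1.72e-05). Nudc-ps1, by its name a pseudogene of Nudc and so of uncertain origin, had a log2 fold change of 1.27 (SE 0.20, adjusted p = 0.000752). Nfix, a nuclear factor I gene, was at 69.5, 66.6 and 117 CPM in WT 1 to 3 and 29.6, 29.99 and 24.2 CPM in KO-labelled 1 to 3 (log2 fold change −1.60, SE 0.22, adjusted p = 0.000182), and Scrt1, a neuronal zinc finger repressor, at 164, 136 and 233 CPM in WT 1 to 3 and 48.6, 79.7 and 45.3 CPM in KO-labelled 1 to 3 (log2 fold change −1.59, SE 0.22, adjusted p = 0.000186). Lrp1, a large endocytic receptor, was at 339, 409 and 584 CPM in WT 1 to 3 and 185, 203 and 133 CPM in KO-labelled 1 to 3 (log2 fold change −1.31, SE 0.20, adjusted p = 0.000512). Sbf1 and Arhgap23, regulators of phosphoinositide and small GTPase signalling, had log2 fold changes of −1.26 (SE 0.18, adjusted p = 0.000351) and −1.28 (SE 0.19, adjusted p = 0.000375). The 4 genes with CPM given here were apart between the labels in all 6 libraries, as 26.6% of all genes were in one direction or the other. The rule that chose them required separate deep libraries, so this separation was in large part set by the choice.

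The shallow pair gives a reading that the 4 deep libraries did not choose. The pair also differed in sex-linked genes. Xist was at 316.1 CPM in WT 2 and 3.02 CPM in KO-labelled 3, and Ddx3y at 0 and 84.6 CPM. Of the genes with an unadjusted p under 0.01 in the deep libraries and at least 10 counts in WT 2 and KO-labelled 3 together, 615 of 686 (89.7%) had the same sign in the shallow pair, beside 71.4% of all tested genes. Of those that also differed 2-fold, 199 of 207 (96.1%) did. Of the 131 called genes named here with their values, 77 stayed called whichever 1 of the 6 libraries was dropped. Many of them were chosen by small p and separate deep libraries in these same data, and each such fit reuses the other libraries. The share over all called genes is not given here, so 77 of 131 does not describe them.

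Loss of Lmx1b in the prenatal brainstem was set beside these differences, since the study follows Lmx1b downstream of AMPK. No library is shared between the experiments. Of the genes tested in the Lmx1b table, 4 of 21729 genes (0.0184%) were called between Lmx1b-/- and WT, all lower, and all 4 were also called between the AMPK labels. Tph2 and Slc6a4 fell by 4.75 and 5.18 on the log2 scale with Lmx1b loss and had log2 fold changes of 5.26 and 5.31 in the KO-labelled libraries, Calb1, a calcium-binding protein, had −0.85 and 1.23, and Lmx1b itself had −3.82 and −1.35. The difference between the contrasts, tested as an interaction over 12 libraries, passed the threshold for Tph2 and Slc6a4 (adjusted p = 0.00172 each) and not for Calb1 and Lmx1b (adjusted p = 0.0546 each). In KO-labelled 2, where Lmx1b was at 9.65 CPM, Tph2 was at 3.63 CPM, and in KO-labelled 1, where Lmx1b was at 2.84 CPM, Tph2 was at 134 CPM.

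Over all genes, the interaction passed for 57 of 21171 (0.269%), with 3349 at an unadjusted p under 0.05, and for 50 of the 1555 genes called between the AMPK labels (3.22%). Of the 1548 called genes tested in both tables, 1348 (87.1%) had the same sign under Lmx1b loss, beside 68.4% of all 17140 genes. Across the 5 length classes used above, this share lay between 83.0% and 91.0% for called genes and between 65.9% and 72.3% for all. The median log2 fold change under Lmx1b loss ran from 0.14 in the shortest class to −0.03 in the longest, so that the length trend was present in both tables, with the same sign and a smaller size in the Lmx1b table.

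**Figure D5:**
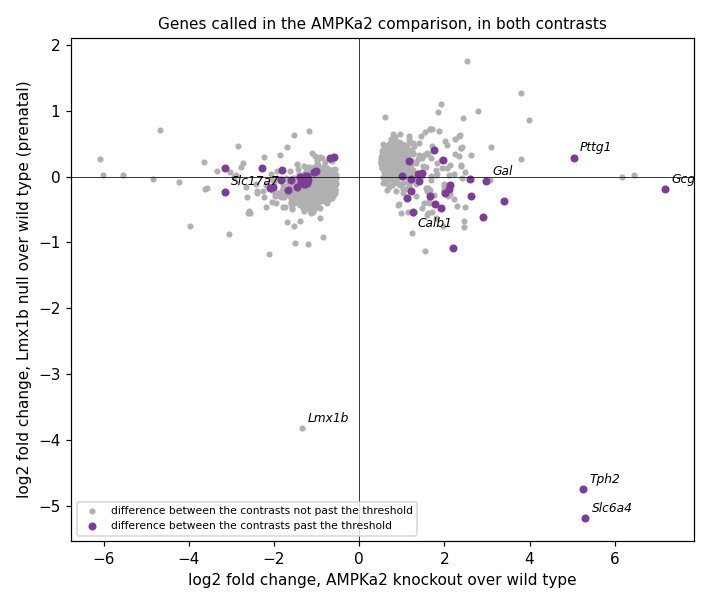
Log2 fold change of KO-labelled over WT (horizontal axis) against that of Lmx1b-/- over WT (vertical axis) for the genes called between the AMPK labels, with purple points where the difference between the contrasts passed the threshold. Tph2 and Slc6a4 lie at the lower right, at about 5 on the first and −5 on the second axis, and Lmx1b lies below 0 on both.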

How the data were processed

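RNA from 6 brainstem samples, 3 WT and 3 labelled AMPKα2-/-, was sequenced with a directional library kit on an Illumina HiSeq 2000. The authors aligned reads with HISAT2 to GRCm39, per the submitters' processing notes, and deposited whole-number counts per gene and RPKM per gene (counts divided by gene length and library total). The counting tool, the use of strand and of the kit's molecular indexes, and the treatment of reads with several matches are not given in the sources used here. Symbols were matched for 51884 of 57180 identifiers (90.7%).

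Samples were grouped by labelled genotype. Counts were filtered with filterByExpr, scaled by TMM and tested with edgeR 4.0.16 (quasi-likelihood F-test, R 4.3.3, genotype as the only term). Tested genes were corrected together by the Benjamini-Hochberg method, and a gene is called where its adjusted p is under 0.05. Fits were tested on simulated data, in which the interaction recovered fewer of the changes put in than the 6-library fit did. The criterion for passing this test was replaced after that was seen. CPM refer to the TMM-scaled total. Gene length was taken from the ratio of counts to RPKM. Alternatives were DESeq2 1.42.0, the likelihood-ratio test, limma 3.58.1 on log2 RPKM with pseudocounts of 1 and 0.1, other scalings, filters and thresholds, a replicate block, removal of the trend with gene length by lowess (span 0.3), the 4 deep libraries alone and each library left out. The count column read as WT 3 carries a suffix after its number.

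The Lmx1b libraries were fitted as 9, and the difference between the contrasts as an interaction over 12 libraries. Single genes named are, per direction, the 15 with the smallest p among called genes with at least 2-fold change, separate deep libraries, at least 20 counts in the higher pair and no opposite sign in a readable shallow pair. To these were added the genes called in the deep libraries alone, up to 4 members of smallest p and other called members of 37 gene lists, the AMPK subunits and Lmx1b. Some genes that these rules name are not reported here. The tissue checks, and genes named only as not called, were chosen after their values were seen. The members and lists were chosen with earlier results of these data known. Lists were described by counts and medians, with no test.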

Additional observations from a re-analysis of the deposited data

Results flagged for a closer look

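The difference between KO-labelled and WT libraries departed from the difference between Lmx1b-/- and WT libraries in 57 genes (interaction, edgeR, adjusted p under 0.05). Of the genes named in the report, 22 are among them, 14 higher and 8 lower in the KO-labelled libraries. The values that follow are the log2 fold change between the AMPK labels minus that of Lmx1b loss. The departure was 10.57 for Slc6a4 and 10.04 for Tph2, which fell with Lmx1b loss (adjusted p = 0.00172 each). It was 7.65 for Gcg, 4.77 for Pttg1, 3.78 for Wif1, 3.08 for Gal, 2.44 for Rbp4, 2.24 for Aldh1a2 and 1.96 for Ptgds. Smaller departures above 0 were found for Rps28 (1.498), Vtn (1.49), Gap43 (1.45), Scn9a (1.36) and mt-Nd3 (0.94). Below 0 were Slc17a7 (−2.87), Col27a1 (−2.37), Col11a2 (−1.89), Nfix (−1.51), Leng8 (−1.43), Hcn2 (−1.13), Sbf1 (−1.12) and Ppfia3 (−1.08). The study describes the Lmx1b tissue as prenatal, so that age and the gene cannot be told apart.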

How the results depend on the processing

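Of the 131 called genes followed singly, all kept their sign under every alternative in which they could be fitted except Crh, at −0.10 without KO-labelled 1 (up to 3.88 without WT 1). These genes were chosen on the same libraries, which favours a kept sign. The number of genes called (655 higher and 900 lower) was 1591 with RLE scaling and 1659 with the likelihood-ratio test. It was 273 higher and 1655 lower with library size only, 825 (367 and 458) where no library was below 10 counts, 689 (299 and 390) with DESeq2, 901 (369 and 532) with the length trend removed, 6 (3 and 3) with the 4 deep libraries, 604 (197 and 407) at 2-fold and 4272 (1982 and 2290) at an unadjusted p under 0.05. Limma on log2 RPKM gave 0 (0 and 0) with either pseudocount, and 2757 and 2215 genes at an unadjusted p under 0.05. Leaving out 1 library gave 548 (without WT 3) to 2958 (without WT 1), with 233 to 1446 higher and 283 to 1512 lower. Of the 548, 482 were among the 1555.

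The deviations of same-numbered libraries had correlations of 0.048, −0.088 and −0.121. Pairs 2 and 3 each hold a shallow library, so these values cannot tell whether the numbers pair the libraries. The replicate block gave 1350 genes (624 higher and 726 lower), 5 for Lmx1b loss and 676 for the difference between the contrasts. The latter was 1009 with any count, 625 by the likelihood-ratio test, 12 without both shallow libraries and 20 (without KO-labelled 1) to 1551 (without WT 1) with 1 library left out. Lmx1b loss gave 329 with any count, 36 by the likelihood-ratio test and 3 to 11 with 1 library left out. The log2 fold change of Lmx1b lay between −2.37 and −0.76 with 1 library left out, and it missed the threshold at −0.99 and −1.50 in limma (adjusted p = 0.238 and 0.370) and at −1.36 in the 4 deep libraries (adjusted p = 0.193). Prkaa2 lay between −0.35 and 0.033 with 1 library left out (0.033 without WT 3) and was at 0.039 with the length trend removed. With 1 library left out Prkab2 lay between −0.67 and 0.0063 (the latter without WT 3) and Prkag1 between −0.064 (without WT 3) and 0.25. Prkag1 was at −0.12 with library size only, −0.12 and −0.14 in limma, −0.056 with the block and −0.067 with the length trend removed, and Prkag2 at −0.0088 with library size only. The share of same signs in the shallow pair was 93.6% at a summed count of at least 20. Neither Prkaa2 nor Lmx1b reached 10 counts in every library, and DESeq2 gave no adjusted p for Lmx1b. Limma called 0 genes in each of the lists. The causes of these moves were not tested.

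In the 2 shallow libraries 3 counts stand for 9.98 and 9.07 CPM, so that lower levels are not resolved there. With all libraries 48 cytosolic ribosomal genes were called higher and 16 chromatin regulators lower, beside 9 and 3 without WT 3 and 12 and 6 without KO-labelled 3.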
